A study of Saccharomyces cerevisiae with 4 samples.

Results

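The genes described here were the 10 genes for the yeast mating pheromones, their receptors and a set of linked functions, taken by their systematic names from the 6301 open reading frames (ORFs) on the arrays. They were MF(ALPHA)1 (YPL187W), MF(ALPHA)2 (YGL089C), MFA1 (YDR461W), MFA2 (YNL145W), STE6 (YKL209C), STE2 (YFL026W), STE3 (YKL178C), GPA1 (YHR005C), BAR1 (YIL015W) and FUS1 (YCL027W). All 10 had values on enough arrays to be tested. The nitrogen-rich condition was a log-phase culture of Saccharomyces cerevisiae S288c at 30 C in synthetic complete medium. The nitrogen-poor condition was the same strain after 12 h in a minimal medium that had 0.025% ammonium sulfate and lacked amino acids and adenine. The limiting ammonium sulfate, the lack of amino acids and adenine, and the 12 h after log phase came together. Their effects cannot be told apart here. RNA of both cultures was reverse transcribed with oligo-dT plus a multi-targeted primer (MTP), a degenerate primer with sites in most yeast mRNAs, and hybridized together on 4 two-color arrays, 2 in each dye orientation. The labels do not state mating type or ploidy, and the replicates were separate reverse transcription reactions, so that the spread between arrays may be technical.

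Haploid yeast cells are of mating type a or α. α cells secrete α-factor, encoded by MF(ALPHA)1 and MF(ALPHA)2, and carry the a-factor receptor Ste3; a cells secrete a-factor, encoded by MFA1 and MFA2, and carry the α-factor receptor Ste2. Both receptors act through the same G protein, in which Gpa1 is the α subunit, and a MAP kinase cascade that ends at the transcription factor Ste12, whose targets include FUS1. In α cells the a-specific genes are repressed, and in a/α diploids the haploid-specific genes are repressed as well. The reference strain named S288c is kept as an α haploid.

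Each value compared the media as log2 of minimal over synthetic, so that a value of -1 is a 2-fold lower level in the nitrogen-poor medium. It is a ratio at 1 spot and gives no transcript level, which leaves unknown whether a gene with a ratio near 0 was well expressed in both media or hardly in either. In cultures of whole cells, fewer expressing cells and less RNA per cell cannot be told apart. Spots with weak signal carried no value. The number of values per array ran from 5548 to 5992, and the array medians from -0.03 to 0.11. Array titles and channel descriptions disagree on which medium carried which dye, so the orientations are named here by title, and the direction was set against the medium levels in the study's own table (r from 0.964 to 0.983 over 1737 to 1924 ORFs per array).

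Both α-factor genes, the G protein α subunit gene and the fusion gene FUS1 fell in nitrogen-poor medium by more than 2-fold on average, while the a-factor gene MFA1 and the α-factor protease gene BAR1 rose. The last 2 are a-specific, and their ratios do not show how strongly they were expressed in either medium. Whether signal from other sources contributed at these spots was not tested. Of the 10 genes, 2 were called higher and 5 lower by limma (adjusted p at or under 0.05), the fifth being STE2, whose change was small. Among all 5956 ORFs tested, 33.8% were called higher and 31.5% lower (65.3% in either direction), so a call alone sets few genes apart in these data. By size, 4 of the 10 genes lay at or below a log2 ratio of -1, compared with 4.77% of all ORFs, and none lay at or above 1, compared with 5.59%. Because the 10 genes were chosen with earlier results of these data known, these shares only describe them and were not tested. The median was -0.08 for the 10 genes and 0.03 over all ORFs.

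**Figure D1:**
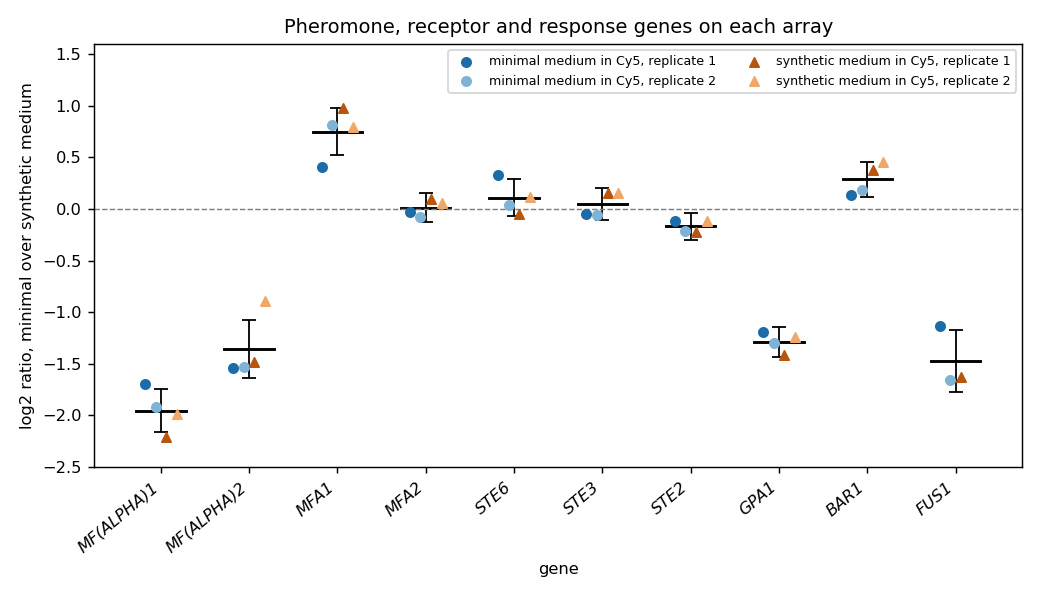
Log2 ratio of minimal over synthetic medium (vertical axis) for each of the 10 genes (horizontal axis) on each array. Circles and triangles mark the 2 dye orientations, horizontal bars the mean over arrays and whiskers its 95% confidence interval from limma. MF(ALPHA)1, MF(ALPHA)2, GPA1, FUS1 and, by little, STE2 lie below 0 on every array with a value, and MFA1 and BAR1 above it.

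MF(ALPHA)1, the gene that supplies most of the α-factor, was the lowest of the 10. Its log2 ratio was -1.70 and -1.92 on minimal-Cy5 arrays 1 and 2, and -2.22 and -1.99 on synthetic-Cy5 arrays 1 and 2 (minimal or synthetic medium in Cy5, with the replicate number of the titles). The arrays lay close together and far from 0, and the mean of -1.96 ± 0.21 (SD, n = 4 arrays; limma adjusted p = 5.36e-06) corresponded to a 3.88-fold lower level. MF(ALPHA)2, the minor α-factor gene, was at -1.54, -1.53, -1.49 and -0.89 in the same order of arrays. It was lower on all arrays, with 3 of them close together and synthetic-Cy5 array 2 apart, and its mean was -1.36 ± 0.32 (SD, n = 4 arrays; limma adjusted p = 8.58e-05), a 2.57-fold lower level. Without the array apart the mean was -1.52. MF(ALPHA)1 fell further than MF(ALPHA)2 on all 4 arrays, by 0.15 to 1.10 on the log2 scale and -0.59 ± 0.41 (SD) on average. An exact two-sided sign-flip permutation test over 4 arrays gave p = 0.125, the smallest it can give, so this difference could not pass 0.05 (4 such pairs were compared). Both encode precursors with copies of the same peptide, and spots of whole ORFs can share hybridization signal between similar genes, which was not tested here.

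The a-factor genes differed from the α-factor genes and from each other. MFA1 was at 0.41, 0.81, 0.98 and 0.80, above 0 on all arrays, with a mean of 0.75 ± 0.24 (SD, n = 4 arrays; limma adjusted p = 0.000545), a 1.68-fold higher level in nitrogen-poor medium. MFA2 was at -0.03, -0.08, 0.10 and 0.06, on either side of 0, with a mean of 0.01 ± 0.08 (SD, n = 4 arrays; limma adjusted p = 0.863). The 95% confidence interval of its mean ran from -0.13 to 0.15, which leaves out a change of the size of MFA1. The difference MFA1 minus MFA2 was positive on all 4 arrays, from 0.44 to 0.90, and averaged 0.74 ± 0.21 (SD; exact two-sided sign-flip permutation p = 0.125, again the smallest possible). Both genes encode a-factor, and shared hybridization signal between their spots was not tested either. STE6, the gene of the transporter that exports a-factor, was at 0.33, 0.04, -0.05 and 0.11, and its mean of 0.11 ± 0.16 (SD, n = 4 arrays; limma adjusted p = 0.239) did not pass.

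Neither receptor gene moved much. STE3, for the a-factor receptor of α cells, was at -0.05 and -0.06 on the minimal-Cy5 arrays and at 0.15 and 0.15 on the synthetic-Cy5 arrays. Its sign followed the dye orientation, and the mean of 0.05 ± 0.12 (SD, n = 4 arrays; limma adjusted p = 0.528) had a 95% confidence interval from -0.11 to 0.20. STE2, for the α-factor receptor of a cells, was at -0.11, -0.21, -0.22 and -0.12, below 0 on all arrays but by little. Its mean of -0.17 ± 0.06 (SD, n = 4 arrays; limma adjusted p = 0.0329) passed, and no longer did so with any single array left out, when adjusted p lay between 0.0566 and 0.143, or with a replicate block (0.0784). STE2 was below STE3 on all 4 arrays, by 0.07 to 0.37, with a mean difference of -0.22 ± 0.13 (SD; exact two-sided sign-flip permutation p = 0.125).

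Downstream of the receptors, GPA1 was at -1.20, -1.30, -1.42 and -1.24. The 4 arrays spanned a narrow range, and the mean of -1.29 ± 0.10 (SD, n = 4 arrays; limma adjusted p = 6.15e-06) corresponded to a 2.44-fold lower level. The other subunits of the same G protein did not share this size of change. STE4, for the β subunit, fell by 0.30 on the log2 scale (SD 0.09, n = 4 arrays; limma adjusted p = 0.00361), and STE18, for the γ subunit, rose to 0.27 ± 0.11 (SD, n = 4 arrays; limma adjusted p = 0.00861). FUS1, which encodes a membrane protein needed for fusion of mating cells and is a widely used reporter of the pheromone response, was at -1.14, -1.66 and -1.63 and had no value on synthetic-Cy5 array 2. It was lower on all 3 arrays that measured it, with a mean of -1.47 ± 0.29 (SD, n = 3 arrays; limma adjusted p = 0.000156), a 2.78-fold lower level. On the arrays with both values, FUS1 minus GPA1 ranged from -0.35 to 0.06 (exact two-sided sign-flip permutation p = 0.5; the smallest possible with 3 arrays is 0.25). BAR1, the secreted protease with which a cells degrade α-factor, was at 0.14, 0.19, 0.38 and 0.45. All arrays were above 0, the mean being 0.29 ± 0.15 (SD, n = 4 arrays; limma adjusted p = 0.0112), a 1.22-fold higher level.

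No difference between dye orientations passed for any of the 10 genes, in a test that has 2 arrays in each orientation and can miss such differences. A dye coefficient added to the model had adjusted p-values from limma between 0.189 (BAR1) and 0.986 (STE2), and over all ORFs 0.0168% were called for it. Calls on the 10 genes were the same with this term.

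**Figure D2:**
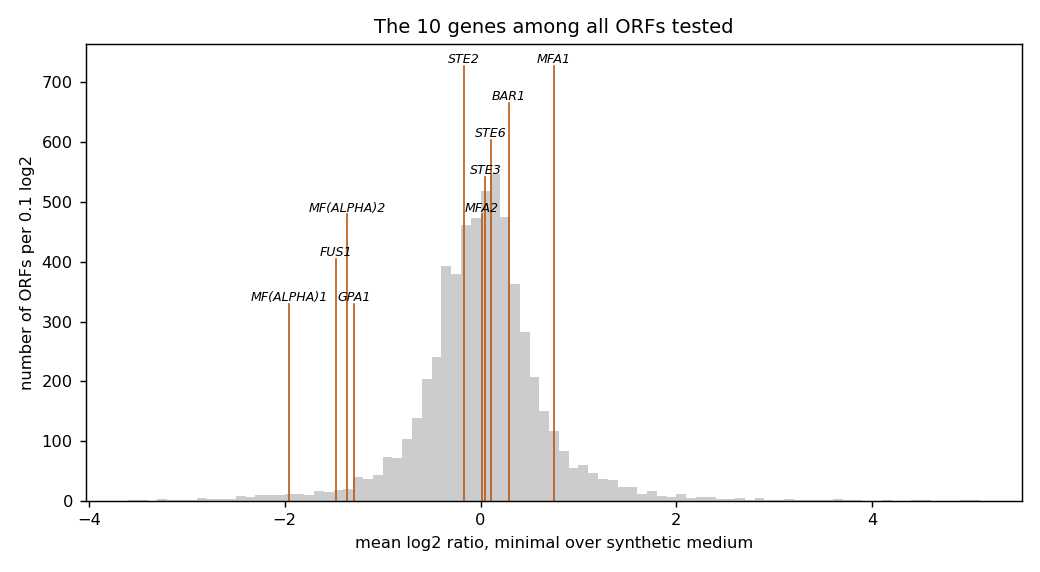
Histogram of the mean log2 ratio of minimal over synthetic medium (horizontal axis, bins of 0.1) over all 5956 ORFs tested (vertical axis, number of ORFs), with the 10 genes marked by lines whose height carries no value. MF(ALPHA)1, FUS1, MF(ALPHA)2 and GPA1 stand in the lower tail, between the percentiles 1.18 and 2.84 of all ORFs, MFA1 is at percentile 91.2, and the other genes lie in the body of the distribution.

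To place the 10 genes in their pathway, 70 genes including them were grouped by role, of which 68 were tested. Among these, 24 were called higher and 28 lower (33.8% and 31.5% among all ORFs), and their median of -0.02 was close to that of all ORFs. At or below -1 were 9 of the 68, compared with 4.77% of all ORFs, and at or above 1 were 2, compared with 5.59%. Of these 9, 4 were among the 10 genes already counted. Without the 10 genes, 5 of 58 lay at or below -1 and 2 at or above 1, with a median of -0.003. The role lists, like the 10 genes, were chosen with earlier results of these data known. With any single array left out, 25 of the 28 lower and 16 of the 24 higher genes kept their call; the lower genes that lost it were STE2, STE14 and DIG1. The 9 genes at or below -1 belonged to 5 of the 6 roles.

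**Figure D3:**
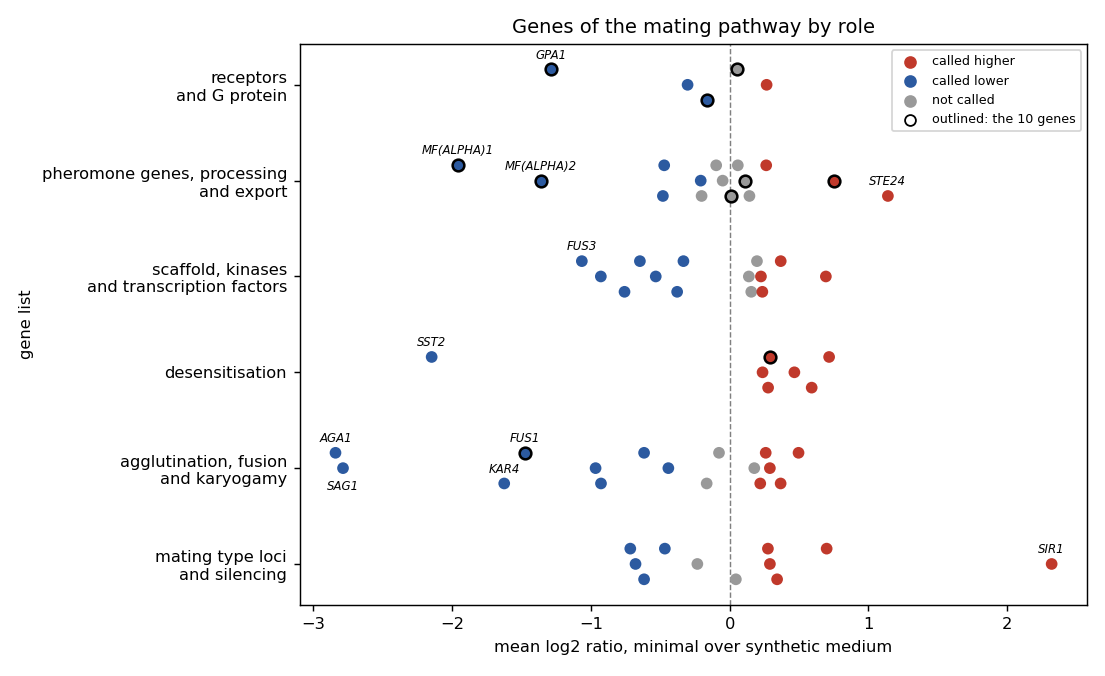
Mean log2 ratio of minimal over synthetic medium (horizontal axis) of the 68 pathway genes tested, by role (rows; the vertical offset within a row carries no value). Blue and red mark genes called lower and higher by limma at an adjusted p of 0.05, grey those not called, and black outlines the 10 genes; AGA1, SAG1 and SST2 lie below -2 and SIR1 lies above 2.

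Of the 14 genes for the scaffold, kinases and transcription factors, 7 were called lower and 4 higher (31.5% and 33.8% among all ORFs), with a median of -0.10. The number called higher was 2 without minimal-Cy5 array 2 and 7 with a dye orientation term. FUS3, the MAP kinase of the mating response, was at -1.06, -0.98, -1.19 and -1.03, all arrays close to a 2-fold lower level, and its mean was -1.07 ± 0.09 (SD, n = 4 arrays; limma adjusted p = 1.14e-05). STE12, the transcription factor that the kinase activates, was at -0.94, -1.29, -1.13 and -0.35, with a mean of -0.93 ± 0.41 (SD, n = 4 arrays; limma adjusted p = 0.00144). As for MF(ALPHA)2, the weakest fall was on synthetic-Cy5 array 2, the array with the fewest values (5548). That array also gave the weakest fall for SST2, SAG1 and PRM1, described below, and no value for FUS1, STE20 and KAR4. For MF(ALPHA)1, GPA1 and AGA1 the weakest fall was on minimal-Cy5 array 1, and for FUS3 on minimal-Cy5 array 2. The upstream kinase gene STE20, at -0.76 ± 0.15 (SD, n = 3 arrays), and CDC24, for the exchange factor of Cdc42, at -0.53 ± 0.10 (SD, n = 4 arrays), also fell. BEM1, for a scaffold of cell polarity, rose to 0.69 ± 0.18 (SD, n = 4 arrays). KSS1, the related kinase that also serves filamentous growth, was at 0.24 ± 0.10 (SD, n = 3 arrays; limma adjusted p = 0.0313), and its call was lost without minimal-Cy5 array 2 (limma adjusted p = 0.0611) or either synthetic-Cy5 array (0.0960 and 0.127).

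All 7 genes of desensitization were called (65.3% among all ORFs), 6 of them higher (33.8%), with a median of 0.29. With each gene's own variance 3 were called higher, and the call of PTP2, the weakest of them, was lost without minimal-Cy5 array 2 or either synthetic-Cy5 array (limma adjusted p from 0.0508 to 0.0608). The gene called lower was SST2, for the regulator that speeds GTP hydrolysis by Gpa1. It was at -2.06, -2.40, -2.28 and -1.85, far below 0 on every array, with a mean of -2.15 ± 0.24 (SD, n = 4 arrays; limma adjusted p = 5.28e-06). The other genes named by the rule were AFR1, involved in receptor signaling and mating projections, which rose to 0.72 ± 0.18, and PTP3, for a phosphatase of Fus3, which rose to 0.59 ± 0.12 (SD, n = 4 arrays each). BAR1 belongs to this role too, with the values given above.

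The agglutinins, cell wall proteins by which mating cells adhere, held the largest falls of the pathway. AGA1, for the anchor subunit of a-agglutinin, which pheromone induces in cells of both types, was at -2.68, -3.09, -2.85 and -2.74, and its mean was -2.84 ± 0.18 (SD, n = 4 arrays; limma adjusted p = 1.11e-06), a 7.16-fold lower level. SAG1, the α-agglutinin gene of α cells, was at -2.73, -2.92, -3.19 and -2.30, with a mean of -2.79 ± 0.37 (SD, n = 4 arrays; limma adjusted p = 6.91e-06). Both were lower than MF(ALPHA)1 on every array. AGA2, for the binding subunit of a-agglutinin, was at 0.15, 0.13, 0.48 and 0.39, all above 0, and its mean of 0.29 ± 0.17 (SD, n = 4 arrays; limma adjusted p = 0.0151) did not pass without either synthetic-Cy5 array (0.0541 and 0.0549). Across the 16 genes tested for agglutination, fusion and karyogamy, 8 were called lower and 5 higher (31.5% and 33.8% among all ORFs), with a median of -0.30. The number called higher was 2 without either synthetic-Cy5 array and 1 with each gene's own variance, and the number called lower was 4 where all 4 arrays were required, which leaves out genes with 3 values such as FUS1 and KAR4. KAR4, for a transcription factor of karyogamy genes, fell to -1.62 ± 0.13 (SD, n = 3 arrays), and PRM1, for a membrane protein of cell fusion, to -0.97 ± 0.18 (SD, n = 4 arrays). FIG2, a mating-induced cell wall adhesin gene named after its values were seen, was at -0.93 ± 0.12 (SD, n = 4 arrays). PRM4, a further pheromone-regulated gene chosen in the same way, was at 0.50 ± 0.29 (SD, n = 4 arrays; limma adjusted p = 0.00660). Its call was lost in a t test with each gene's own variance (adjusted p = 0.0714). The means of the pheromone-regulated genes of this list thus did not all lie on 1 side of 0.

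For the pheromone genes with their maturation and export, 15 genes were tested, of which 5 were called lower and 3 higher (31.5% and 33.8% among all ORFs). Without the pheromone genes and STE6, 10 genes were left, 3 called lower and 2 higher. Apart from the pheromone genes themselves, the largest change was in STE24, for the protease that trims the a-factor precursor, at 1.15, 1.08, 1.13 and 1.19. The arrays nearly coincided, with a mean of 1.14 ± 0.05 (SD, n = 4 arrays; limma adjusted p = 6.03e-06). The α-factor proteases moved by less, and their values were picked out after they were seen. KEX1 fell to -0.48 ± 0.15 (SD, n = 4 arrays; limma adjusted p = 0.00117) and KEX2 rose to 0.26 ± 0.11 (SD, n = 4 arrays; limma adjusted p = 0.00948), the latter no longer called without minimal-Cy5 array 2 (0.0558). STE13 was at -0.10 ± 0.18 (SD, n = 4 arrays; limma adjusted p = 0.312).

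**Figure D4:**
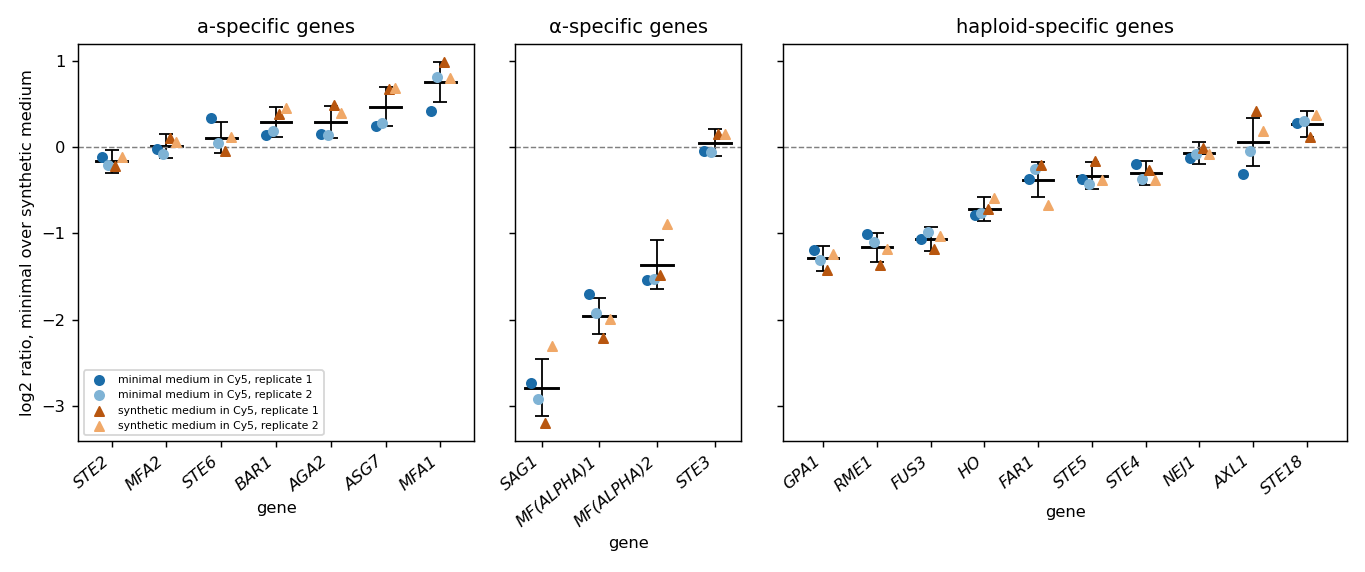
Log2 ratio of minimal over synthetic medium (vertical axis) per array for genes of the 3 mating cell type classes (horizontal axis), with the mean and its 95% confidence interval from limma; circles and triangles mark the dye orientations. In the α-specific class SAG1, MF(ALPHA)1 and MF(ALPHA)2 lie between -3.19 and -0.89 and STE3 lies near 0, whereas the values of the a-specific genes run from -0.22 to 0.98.

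Genes were also grouped by the cell type in which they are expressed, with no test between the groups. Most were among the 70 pathway genes, but the haploid-specific list also holds genes outside them, such as RME1. Of 4 α-specific genes, SAG1, MF(ALPHA)1 and MF(ALPHA)2 were called lower and STE3 was not (31.5% lower among all ORFs). The median was -1.66 over a range from -2.79 to 0.05. Of 7 a-specific genes, MFA1, ASG7, AGA2 and BAR1 were called higher and STE2 lower (33.8% and 31.5% among all ORFs). MFA2 and STE6 were not called. The median was 0.29 and the range ran from -0.17 to 0.75, within which STE3 also lay. With each gene's own variance MFA1 alone was called higher, the adjusted p of ASG7, AGA2 and BAR1 being 0.0569, 0.0763 and 0.0580, and STE2 was not called with any array left out. The a-specific genes called higher each averaged higher with synthetic than with minimal medium in Cy5. The means were 0.89 and 0.61 for MFA1, 0.68 and 0.26 for ASG7, 0.44 and 0.14 for AGA2, and 0.415 and 0.161 for BAR1. MFA2 leaned the same way (0.08 and -0.05), STE6 the other way (0.03 and 0.19), and STE2 hardly differed (-0.17 and -0.16). Both lists consist mostly of the 10 genes and so add few genes of their own, ASG7 and AGA2 on one side and SAG1 on the other. Of 10 haploid-specific genes, 7 were called lower and 1 higher (31.5% and 33.8% among all ORFs), with a median of -0.36 and a range from -1.29 to 0.27. GPA1 and FUS3 were among the lowest, together with RME1, a repressor of meiosis named after its values were seen, at -1.16 ± 0.15 (SD, n = 4 arrays). HO, for the endonuclease of mating type switching, fell to -0.72 ± 0.09 (SD, n = 4 arrays).

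The mating type genes that set these classes gave ratios in both directions. The spots of MATALPHA1 and HMLALPHA1, for the activator of α-specific genes, were at -0.68 ± 0.16 and -0.62 ± 0.10, and both were called lower (SD, n = 4 arrays each; limma adjusted p = 0.000263 and 0.000167). The spots of MATALPHA2 and HMLALPHA2, for the repressor of a-specific genes, were at 0.28 ± 0.11 and 0.34 ± 0.11, and both were called higher (SD, n = 4 arrays each; limma adjusted p = 0.00756 and 0.00313). The genes of HML and MAT are copies of each other, so that their spots cannot be told apart by hybridization. The counts above hold both spots of each pair. Without the HML copies 23 genes were called higher and 27 lower of 66 (33.8% and 31.5% among all ORFs). HMRA1, the a1 gene, had no value on any array. SIR1, for a factor that establishes silencing at the mating type loci, had the largest increase of the 68 genes, at 2.43, 1.81, 2.53 and 2.51, with a mean of 2.32 ± 0.34 (SD, n = 4 arrays; limma adjusted p = 1.05e-05). SIR4 rose to 0.70 ± 0.09 (SD, n = 4 arrays), while SIR2 at 0.04 ± 0.16 and SIR3 at -0.23 ± 0.25 (SD, n = 4 arrays each) did not pass.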

How the data were processed

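The authors scanned 4 two-color arrays of PCR-amplified ORFs, subtracted local background and used mean normalization over spots that passed their signal limit. The deposited table holds the log2 ratio of each ORF on each array, left empty for spots under that limit. Scanner intensities were not used. The table was analysed as deposited, with the mean log2 ratio of each ORF with values on at least 3 arrays tested in limma 3.58.1 (R 4.3.3) and p-values adjusted by Benjamini-Hochberg over all 5956 ORFs. The authors' Bayesian program was not run. The number of arrays limits the precision. Gene symbols came from the NCBI R64 gene table, used for names and neighbors only (5801 of 6301 ORFs matched).

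The 10 genes and the role lists were chosen with earlier results of these data known. Genes named from the lists had an adjusted p of 0.05 or less, 1 sign on all arrays with values and a mean log2 ratio of at least 0.5 in size, at most 4 in each direction per list, plus FUS3, STE12, STE4, STE18, SST2, AGA1, AGA2 and SAG1. Others named (KSS1, STE14, DIG1, PTP2, FIG2, PRM4, KEX1, KEX2, STE13, RME1, ASG7, the MATALPHA2 and HMLALPHA2 spots, HMRA1, SIR2, SIR3, RCE1 and AXL1) were picked after their values were seen. Lists were counted, not tested as sets.

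In simulated data on 5956 ORFs, 50 genes for each size of change, the fit recovered 18% of shifts of 0.25, 70% of 0.5, 90% of 1 and 98% of 2 on the log2 scale. Far fewer genes changed there than were called in the data (65.3%), which makes the adjusted cut-off stricter in the simulation. The recovered shares therefore do not measure recovery in the data themselves. Replicate numbers did not pair the arrays (r = 0.01 between deviations of same-numbered arrays over 5231 ORFs). Promoter motifs were not analysed here.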

Additional observations from a re-analysis of the deposited data

Results flagged for a closer look

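The values of 59 genes measured on all 4 arrays were examined for 1 array far from the others, and chance alone puts about 5% of such groups past the limit. Of these, 5 had 1 array apart. For MF(ALPHA)2 the gap divided by the range was 0.910, the array apart being the second with synthetic medium in Cy5 at -0.89. SIR4 had the same array apart, with 0.56 against 0.73 to 0.76 on the others (0.891). The array apart was the second with minimal medium in Cy5 for SIR1, at 1.81 (0.863), for the MATALPHA2 spot, at 0.11 against 0.33 on the others (0.987), and for RCE1, for a protease of a-factor maturation, at -0.15 (0.883).

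STE3, MFA2 and AXL1 had opposite signs in the 2 dye orientations. The mean with minimal medium in Cy5 minus that with synthetic medium in Cy5 was -0.21 for STE3 (adjusted p of the dye coefficient 0.237 from limma), -0.13 for MFA2 (0.414) and -0.48 for AXL1, for a protease of a-factor maturation. The dye coefficient of AXL1 had an adjusted p of 0.148 from limma.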

How the results depend on the processing

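For the 10 genes, no value that passed an adjusted p of 0.05 changed sign under any of the 14 other settings. MF(ALPHA)1, MF(ALPHA)2, MFA1, GPA1 and FUS1 kept their calls wherever they could be fitted; FUS1 has no value where all 4 arrays were required. STE2 lost its call on leaving out any of the 4 arrays and under a replicate block (limma adjusted p = 0.0784). BAR1 lost it when each gene's own variance was used (limma adjusted p = 0.0580), so that 1 gene, MFA1, was then called higher. MFA2, not called, changed sign between settings (-0.02 to 0.04). With single arrays left out, 2 of the 10 genes were called higher and 4 lower each time, and of the pathway genes 18 to 24 higher and 25 to 28 lower. The block changed the calls of 5 of the 70 list genes and left 21 pathway genes higher and 26 lower. Leaving out single arrays moved MF(ALPHA)1 minus MF(ALPHA)2 between -0.74 and -0.43. Centring the arrays, with or without scaling, changed no call on the 10 genes. Weak spots carry no value, and without intensities the background could not be varied.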

Other observations

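The ORFs next to the 10 genes on the chromosome, in the order of the R64 gene table among ORFs listed on the arrays, were looked at after the values were seen. Beside MF(ALPHA)1, POS5 (YPL188W), for a mitochondrial NADH kinase, was at -1.20 ± 0.18 and UIP4 (YPL186C), for a nuclear envelope protein, at 2.23 ± 0.12 (SD, n = 4 arrays each; limma adjusted p = 2.47e-05 and 1.16e-06), so the neighbors moved in opposite directions. Beside MF(ALPHA)2, LIF1 (YGL090W) was at 0.09 ± 0.33 (SD, n = 4 arrays; limma adjusted p = 0.546) and YGL088W at 1.31 ± 0.32 (SD, n = 3 arrays; limma adjusted p = 0.000315), the latter opposite in sign to MF(ALPHA)2. Beside MFA2, both neighbors were lower, YNL146W at -0.44 ± 0.10 and MPF1 (YNL144C) at -0.40 ± 0.10 (SD, n = 4 arrays each), while MFA2 itself lay at 0.01. Some neighbors moved with the member. Beside MFA1, TFB3 was at 0.27 ± 0.20 and MRPL28 at 0.18 ± 0.06 (SD, n = 4 arrays each, limma adjusted p = 0.0273 and 0.0256). RNQ1, beside FUS1, was at -0.21 ± 0.09 (SD, n = 4 arrays, limma adjusted p = 0.0190). Against the member moved SNL1, beside BAR1, at -0.24 ± 0.14, and NEM1, beside GPA1, at 0.19 ± 0.06 (SD, n = 3 arrays each, limma adjusted p = 0.0400 and 0.0495).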
